A study of Mus musculus with 14 samples.

Results

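Lysosomal cathepsins are the proteases that degrade proteins delivered to the lysosome. The 10 genes described here, *Ctsa*, *Ctsb*, *Ctsc*, *Ctsd*, *Ctsf*, *Ctsh*, *Ctsk*, *Ctsl*, *Ctss* and *Ctsz*, were taken by name from the 20550 genes listed in each deposited file, and all 10 were found. They were measured by total RNA-seq in the mammary glands of 2 mice on day 10 of lactation (L10). Both mice were wt/Wap-Tbrg4, with 1 wild-type allele and 1 allele in which a CRISPR-Cas9 deletion, made in C57BL/6 zygotes, joined the regulatory elements and the first exon of *Wap* to *Tbrg4*. The age of the mice at sampling and the number of founders behind the line are not given in the sources used here, and ChIP-seq samples of other genotypes in the series were not analysed here. With 1 genotype and 1 stage there were no groups to compare, so the values are given per mouse, named replicate 1 and replicate 2, without a test.

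Cathepsins are made as inactive precursors, carried to the lysosome mainly by mannose 6-phosphate receptors, and activated by cleavage at acid pH. They belong to several catalytic classes: *Ctsd* encodes an aspartic protease, *Ctsa* a serine carboxypeptidase, and the other 8 members encode papain-like cysteine proteases, which cystatins inhibit. In the mammary gland, cathepsins are known for their part in the removal of the milk-producing epithelium after weaning, whereas L10 is a stage of full milk secretion.

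Levels are FPKM of exons or introns as computed by the authors, that is, fragments scaled by a factor for each library and to length. They can be compared between genes where the length used fits the transcripts present. The steps between the low FPKM values of short genes placed the scale at about 10100000 reads in replicate 1 and 5100000 in replicate 2. Exonic reads were about 12100000 and 11300000 in all, so the scale differed more between the mice than these reads did. A given FPKM therefore rested on more reads in replicate 1. The 10 genes with the highest exon FPKM held 79.5% of the summed exon FPKM in replicate 1 and 90.6% in replicate 2. The tissue label was met by the alveolar epithelial markers, all 9 of which averaged 1 exon FPKM or more, led by *Csn2* (108555 and 481937 FPKM), *Wap* and *Csn1s1*, and *Tbrg4*, the gene of the fusion, had 314.7 and 291.5 FPKM. Each value is an average over the cell types of the gland, and fewer cells of a type and less RNA per cell cannot be told apart.

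The sequence before the start site is shown for the members with the highest and the lowest exon FPKM, *Ctsd* and *Ctsk*, to set 2 unlike promoters of the family side by side. Each is the 250 bases before the RefSeq start on GRCm38.p6, written 5′ to 3′ on the strand of the gene, which is minus for *Ctsd* (chr7:142387828-142388077) and plus for *Ctsk* (chr3:95498960-95499209). Capitals mark CACGTG, the E-box letters recognised by the MiT/TFE factors that control lysosomal genes.
Ctsd: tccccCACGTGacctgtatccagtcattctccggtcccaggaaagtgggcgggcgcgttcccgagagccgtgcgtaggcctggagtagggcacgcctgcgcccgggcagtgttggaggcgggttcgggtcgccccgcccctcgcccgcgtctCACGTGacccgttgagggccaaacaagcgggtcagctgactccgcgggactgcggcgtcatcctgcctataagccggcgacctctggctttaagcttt
Ctsk: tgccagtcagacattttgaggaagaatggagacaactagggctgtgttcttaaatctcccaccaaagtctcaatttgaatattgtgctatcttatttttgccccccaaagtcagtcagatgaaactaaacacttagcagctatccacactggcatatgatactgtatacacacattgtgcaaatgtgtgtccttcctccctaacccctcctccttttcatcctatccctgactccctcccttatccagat

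The window of 300 bases from 250 before to 50 after the start had a GC content of 67.3% and 33 CpG dinucleotides in *Ctsd*, compared with 43.7% and 2 in *Ctsk*. Across all 32851 RefSeq windows of this length the medians were 52.7% and 7. Windows were found for 8 of the 10 members, all but *Ctsb* and *Ctsh*, and *Ctsa* had 2. The letters CACGTG, which read the same on both strands, occurred in the windows of 4 members, *Ctsa*, *Ctsd*, *Ctsf* and *Ctsl*, and in 7.15% of all windows. In *Ctsd* they began 245 and 98 bases before the start. The E-boxes of the other 3 members are shown with 10 bases on either side.
Ctsl, 236 bases before the start: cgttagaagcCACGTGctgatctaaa
Ctsf, 79 bases before the start: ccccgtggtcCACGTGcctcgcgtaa
Ctsa, 12 bases before the downstream start: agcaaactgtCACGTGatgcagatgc

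These E-boxes lie at chr13:64370751-64370756 (minus strand), chr19:4855086-4855091 (plus) and chr2:164833761-164833766 (plus). That of *Ctsa* belongs to the downstream one of its RefSeq starts, at 164833773, whose window held another CACGTG 5 bases past the start, whereas the window at the upstream start, 164832872, held none. The GC box letters GGGCGG, searched on both strands, occurred in 5 members (*Ctsc*, *Ctsd*, *Ctsf*, *Ctss* and *Ctsz*) and in 35.7% of all windows, and 2 of the matches in *Ctsz* shared 1 base. TATAAA, also searched on both strands, was found in *Ctss* alone among the members, in the reverse orientation 233 bases before the start, and in 13.6% of all windows. TTCNNNGAA, the palindromic letters bound by STAT5, occurred in *Ctsc* alone, 236 bases before the start, and in 8.30% of all windows. These matches describe the reference sequence, and binding was not measured at them here.

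*Ctsd* had the highest level of the family. It encodes the main aspartic protease of the lysosome and lies on chromosome 7 of GRCm38.p6 at 142375910 to 142387827 on the minus strand, with 9 exons. Replicate 1 had an exon FPKM of 488.4 and replicate 2 one of 329.2 (mean 408.8 ± 113, SD, n = 2), which was rank 51 of the 20515 genes with a usable symbol. About 9456 and 3218 reads stood behind these values. No other lysosomal gene among the 75 examined exceeded *Ctsd* in its mean, although *Gm2a* did in replicate 2, at 391.8 FPKM.

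The serine carboxypeptidase gene *Ctsa*, whose product also protects β-galactosidase and neuraminidase in a complex, was expressed at a much lower level. Exons reached 16.7 FPKM in replicate 1 compared with 13.2 in replicate 2 (mean 14.95 ± 2.47, SD, n = 2; rank 2063). *Ctsa* lies on chromosome 2 at 164832872 to 164841032 (plus strand, 16 exons), where 820 bp of its exons are shared with *Neurl2* and *Pltp* on the opposite strand. The libraries were stranded, but whether the counting used strand is not stated in the sources used here, so reads of these genes may not be separated.

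Among the 4 members that mainly trim the ends of peptides, *Ctsb* was the highest and the most alike between the mice. *Ctsb*, which encodes a protease with both carboxydipeptidase and endopeptidase activity, had 207.1 FPKM in replicate 1 and 219.6 in replicate 2 (mean 213 ± 8.84, SD, n = 2; rank 104). It lies on chromosome 14 at 63122462 to 63145923 on the plus strand, with 10 exons, of which 774 bp overlap *Fdft1* on the other strand. *Ctsz*, a carboxypeptidase gene on chromosome 2 (174427494 to 174439039, minus strand, 6 exons), had 118.4 and 77.5 FPKM (mean 97.95 ± 28.9, SD, n = 2; rank 217).

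The other exopeptidase genes were lower and both stood higher in replicate 2. *Ctsh*, which encodes an aminopeptidase, had 49.8 and 58.8 FPKM (mean 54.3 ± 6.36, SD, n = 2; rank 430) and lies on chromosome 9 at 90054267 to 90076095 (plus strand, 12 exons). *Ctsc*, which encodes the dipeptidyl peptidase that activates serine proteases of immune cell granules, had 27.9 and 50.3 FPKM (mean 39.1 ± 15.8, SD, n = 2; rank 667). It lies on chromosome 7 at 88278085 to 88315861 on the plus strand with 9 exons, and the fold difference between its values was exceeded only by that of *Ctsf*. The merged RefSeq exons of *Ctsc* (11061 bp) are longer than its longest transcript (7466 bp). Its level and rank therefore depend on the exon length used, and are less certain than those of the other members.

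The 4 endopeptidase genes ranged in their means from 92.85 down to 4.25 FPKM. *Ctsl*, a broadly expressed member on chromosome 13 (64361890 to 64370520, minus strand, 8 exons), had 107.2 FPKM in replicate 1 and 78.5 in replicate 2 (mean 92.85 ± 20.3, SD, n = 2; rank 229). *Ctss*, which encodes the protease that trims the invariant chain of MHC class II in antigen-presenting cells, had 39.0 and 31.0 FPKM (mean 35.0 ± 5.66, SD, n = 2; rank 778). In both genes replicate 1 was the higher.

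*Ctsf* and *Ctsk* were the lowest members. *Ctsf*, on chromosome 19 (4855165 to 4860918, plus strand, 14 exons), had 5.9 FPKM in replicate 1 and 2.7 in replicate 2 (mean 4.3 ± 2.26, SD, n = 2; rank 5887). *Ctsk*, which encodes the collagen-degrading protease of osteoclasts, had 3.4 and 5.1 FPKM (mean 4.25 ± 1.20, SD, n = 2; rank 5922). About 27 reads for *Ctsf* in replicate 2 and 41 for *Ctsk* in the same mouse make these the least precise exon values of the family. *Ctsk* (95499210 to 95509387) and *Ctss* (95526786 to 95556405) are neighbours on chromosome 3, both on the plus strand with 8 exons, 17398 bp apart and with no gene between them, yet the mean of *Ctss* was much the higher. In both mice *Ctsf* and *Ctsk* lay below the median of genes averaging 1 FPKM or more, which was 6.0 in replicate 1 and 5.3 in replicate 2.

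**Figure D1:**
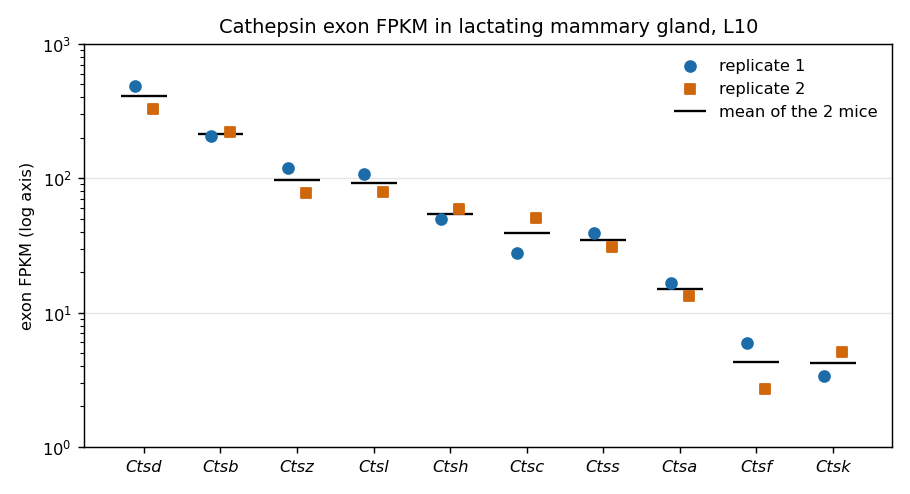
Exon FPKM of the 10 cathepsin genes on a log axis, with replicate 1 as circles, replicate 2 as squares and the mean of the 2 mice as a line. The genes run from *Ctsd* (408.8 FPKM) to *Ctsf* and *Ctsk* (4.3 and 4.25 FPKM), and the 2 mice overlap in range between *Ctsz* and *Ctsl*, *Ctsh* and *Ctsc*, *Ctsc* and *Ctss*, and *Ctsf* and *Ctsk*.

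From the highest to the lowest member the mean fell over a 96.2-fold range. In this order, 5 of the 9 steps separated neighbours whose ranges over the 2 mice did not overlap. *Ctsd* was 1.92 times *Ctsb*, *Ctsb* 2.18 times *Ctsz*, *Ctsl* 1.71 times *Ctsh*, *Ctss* 2.34 times *Ctsa* and *Ctsa* 3.48 times *Ctsf*. The other 4 steps did not exceed the spread between the mice. *Ctsz* and *Ctsl* differed 1.05-fold in their means and changed places in replicate 2, *Ctsc* and *Ctss* differed 1.12-fold and *Ctsf* and *Ctsk* 1.01-fold, and both of these pairs also changed places between the mice. *Ctsh* was above *Ctsc* in each mouse, with a ratio of means of 1.39 and overlapping ranges. Over the 10 members, Spearman's rho between the mice was 0.964, as a description.

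The summed exon FPKM of the family was 1063.8 in replicate 1 and 865.9 in replicate 2 (mean 965 ± 140, SD, n = 2). *Ctsd* alone made up 45.9% and 38.0% of it, and *Ctsd*, *Ctsb* and *Ctsz* together 76.5% and 72.3%. The 8 cysteine protease genes summed to 558.7 and 523.5 FPKM, closer between the mice than *Ctsd* was. As a share of the summed exon FPKM of all genes the family held 0.125% in replicate 1 and 0.0484% in replicate 2, and this share depends on the milk protein genes: *Csn2* and *Wap* (172935 and 234774 FPKM) differed between the libraries.

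Between the 2 mice, 6 of the 10 members were higher in replicate 1 and 4 in replicate 2, near the 55.4% and 42.5% of all genes tested. On the scale of log2(FPKM + 1), replicate 2 over replicate 1, the members ranged from -0.90 (*Ctsf*) to 0.83 (*Ctsc*), with a median of -0.32. Over the 9845 genes averaging 1 exon FPKM or more the median was -0.08, with 5% of them at or below -1 and 5% above 0.67. No member differed by more than 2-fold in either direction on this scale, and without the pseudocount only *Ctsf* did, at 2.19-fold. Over all genes tested, 4.82% were more than 2-fold higher in replicate 1 and 1.08% more than 2-fold higher in replicate 2, so 0 of 10 members is close to that background. All these ratios and counts depend on the scale the authors gave each library, and ratios with both mice set to the same total were not computed.

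Counting error was small beside the difference between the mice for *Ctsd*, *Ctsc*, *Ctsz* and *Ctsl*, and larger relative to it for the other 6 members. Without a pseudocount, the log2 ratio of *Ctsd* was -0.57 (95% interval -0.63 to -0.51), that of *Ctsc* 0.85 (0.78 to 0.92), that of *Ctsz* -0.61 (-0.75 to -0.47) and that of *Ctsl* -0.45 (-0.54 to -0.36). Wider intervals relative to the ratio were found for *Ctsh* at 0.24 (0.08 to 0.40), *Ctss* at -0.33 (-0.57 to -0.10) and *Ctsa* at -0.34 (-0.56 to -0.12). The ratio of *Ctsb*, 0.08 (0.04 to 0.13), was the smallest in size. For *Ctsf* the ratio was -1.13 (-1.78 to -0.50), and for *Ctsk* it was 0.58 (-0.03 to 1.20), the only one of the 10 whose interval included 0. These exact intervals use read numbers estimated from the FPKM scale and RefSeq exon lengths, cover counting error only, and describe 2 libraries rather than a condition. For *Ctsc* the length is uncertain, because the merged exons (11061 bp) are longer than any of its transcripts (4031 to 7466 bp).

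**Figure D2:**
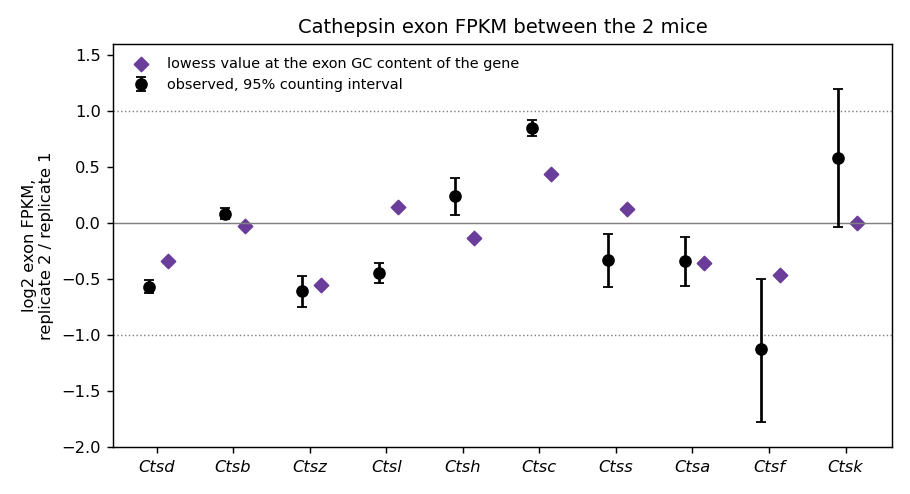
Log2 ratio of exon FPKM, replicate 2 over replicate 1, for the 10 cathepsin genes (circles, with 95% counting intervals), beside the value of the lowess curve at the GC content of each gene (diamonds). Dotted lines mark 2-fold differences: *Ctsf* at -1.13 lies past one without a pseudocount, and the interval of *Ctsk* is the only one that includes 0.

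The difference between the mice moved with exon GC content. Spearman's rho between GC content and the log2 ratio was -0.658 over 9725 genes and -0.636 over the 10 members. *Ctsc*, the member with the lowest GC content (38.9%), was the one most clearly higher in replicate 2, and *Ctsz* with the highest (57.3%) was lower there. At these GC contents the lowess curve over all genes lay at 0.44 for *Ctsc* and -0.55 for *Ctsz*, against their log2 ratios of 0.83 and -0.61. *Ctsl* departed the other way, with a ratio of -0.44 at 45.6% GC, where the curve lay at 0.14, a residual of -0.58, larger in size than those of 87.9% of genes. After subtraction of the curve, 5 members were higher in each mouse and their median was -0.01. The part of GC content in the differences was not tested.

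**Figure D3:**
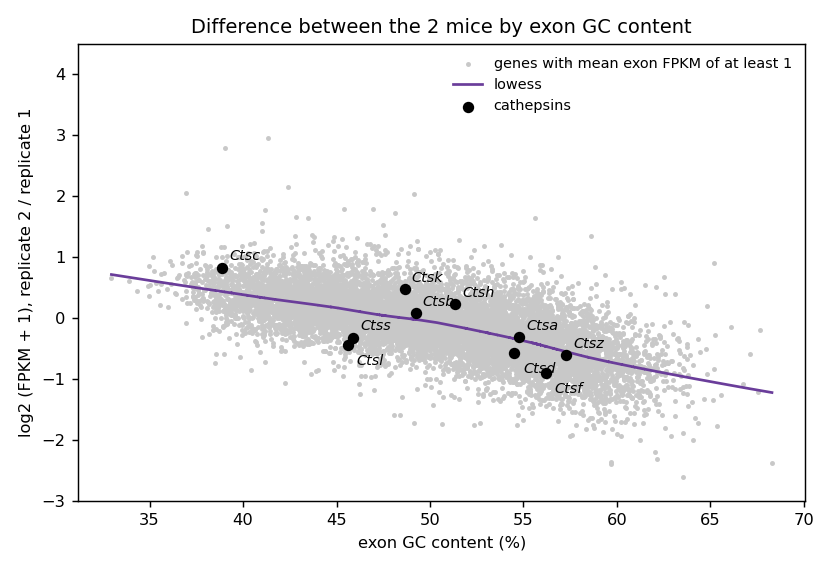
Log2 ratio of exon FPKM + 1, replicate 2 over replicate 1, against exon GC content in percent, for genes averaging 1 exon FPKM or more (grey), the lowess curve over them (line) and the 10 cathepsin genes (black). The curve falls with GC content, and *Ctsl* and *Ctss* lie below it while *Ctsk*, *Ctsh* and *Ctsc* lie above it.

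Intronic reads come mainly from RNA that has not yet been spliced. The intron FPKM of the family summed to 9.4 and 8.6 in the 2 mice, and by their means the highest members were *Ctsb* (2.6 and 1.5 FPKM) and *Ctsc* (1.1 and 2.3 FPKM), which changed places in replicate 2. *Ctsd* had 1.4 and 1.0 FPKM, about the level of *Ctsz* (1.2 and 0.8), *Ctsh* (1.1 in both) and *Ctsl* (0.9 and 1.0). The members with low intron values were *Ctsa* (0.5 and 0.3), *Ctsf* (0.3 in both), *Ctsk* (0.2 in both) and *Ctss* (0.1 in both), where rounding to 0.1 FPKM limits what can be read.

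The order of the members thus differed in part between exons and introns. Spearman's rho between the exon and intron means was 0.745 over the 10 members, as a description. The ratio of the mean exon to the mean intron FPKM was 350 for *Ctss* and 341 for *Ctsd*. Both were higher than in 99.6% of genes with values above 0. The ratio was lowest for *Ctsf* at 14.3, *Ctsk* at 21.25 and *Ctsc* at 23.0, and that of *Ctsc* also depends on its uncertain exon length. *Ctsd* and *Ctsc*, whose exon means differ greatly, had intron means of 1.2 and 1.7 FPKM. The median ratio was 73.6 over the members and 15.3 over 9535 genes, and 9 of the 10 members were above the latter. The ratio of *Ctss* rests on an intron FPKM at the rounding step, so it is imprecise. Of the 6 members averaging 0.5 intron FPKM or more, none differed by more than 2-fold between the mice on the scale of intron FPKM + 0.1, compared with 3.53% of 4220 genes that were higher in replicate 1 and 2.37% that were higher in replicate 2. *Ctsc* differed by exactly 2-fold on this scale and by 2.09-fold without the pseudocount, and it was higher in replicate 2 in exons as well.

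**Figure D4:**
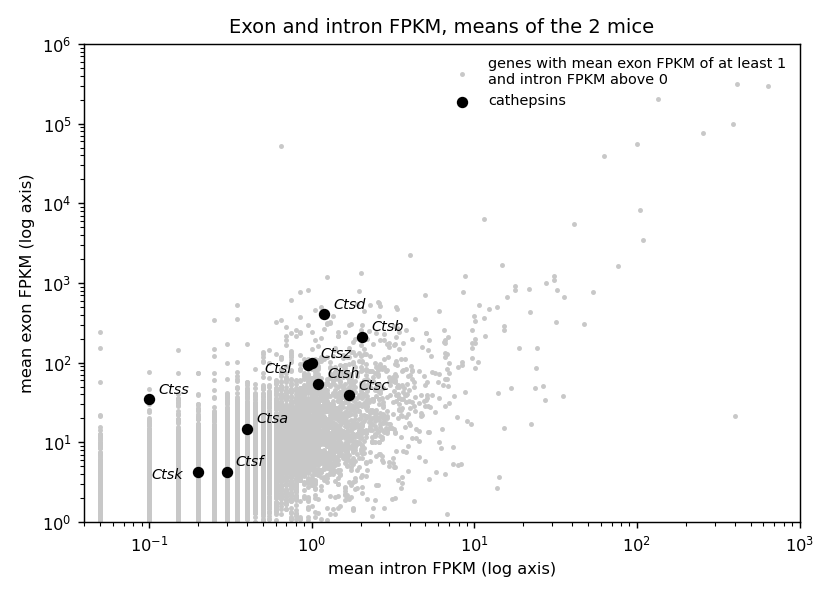
Mean exon FPKM against mean intron FPKM over the 2 mice, both on log axes, for genes averaging 1 exon FPKM or more with introns above 0 (grey) and the 10 cathepsin genes (black). *Ctsd* and *Ctss* stand far above genes of the same intron FPKM, whereas *Ctsc*, *Ctsk* and *Ctsf* lie nearer to the middle of the cloud.

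Of the other 15 genes of the cathepsin family and its close relatives, 11 were listed at 0 in exons and introns of both mice. *Tinagl1*, a relative without protease activity, had 19.7 and 11.6 FPKM and *Ctso* had 2.6 and 3.7 FPKM. They were the only ones of the 15 with a mean of at least 1, and only *Tinagl1* exceeded *Ctsa*, *Ctsf* and *Ctsk* in its mean. In replicate 2 *Tinagl1* was below *Ctsa*, and *Ctso* was above *Ctsf*. *Ctsw*, known from cytotoxic lymphocytes, came next at 1.0 and 0.8 FPKM. The 11 genes at 0 include the placental cathepsins such as *Cts7* and *Ctsq*, and *Ctsg*, a serine protease of neutrophil granules.

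The cystatin gene *Cst3*, which encodes the main secreted inhibitor of cysteine cathepsins, was at a level close to that of *Ctsb*. Exons reached 216.4 FPKM in replicate 1 compared with 216.0 in replicate 2 (mean 216.2 ± 0.283, SD, n = 2), 0.387 and 0.413 times the sum of the 8 cysteine members. *Cstb*, the intracellular inhibitor, had 31.2 and 44.9 FPKM, higher in replicate 2 as *Ctsh* and *Ctsc* were. No other cystatin of the 15 found had a mean of at least 1, with *Cst6* and *Cst7* next at 0.1 and 0 FPKM each, and 11 were listed at 0. Among the 5 genes with cystatin domains in the kininogen and fetuin group, *Ahsg* was the highest, at 8.6 and 12.6 FPKM, followed by *Kng1* (1.3 and 2.6) and *Hrg* (0.9 and 1.9).

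Most members stood above most other lysosomal genes. Of 75 such genes for sorting, the lysosomal membrane, other hydrolases and the proton pump, 72 had a mean of at least 1, and the median of the 75 was 10.9 FPKM in replicate 1 and 12.3 in replicate 2. In each mouse 8 members were above that median, and the other two were *Ctsf* and *Ctsk*. The hydrolase cofactor *Gm2a* (259.0 and 391.8 FPKM) was the only one of the 75 above *Ctsb* in its mean. *Psap*, which encodes the saposin precursor and was above *Ctsb* in replicate 1, followed with 214.9 and 126.6 FPKM. Next by their means came the membrane gene *Lamp1* with 130.4 and 154.0 FPKM and the sterol carrier *Npc2* with 125.2 and 93.3. Differences of more than 2-fold between the mice included *Atp6v0c*, higher in replicate 1, and *Ids*, higher in replicate 2.

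The 11 genes for sorting to the lysosome all had a mean of at least 1, led by *Sort1* (70.2 and 100.5 FPKM), *Igf2r* (55.5 and 43.2) and *M6pr* (38.6 and 42.5). Of the 13 membrane genes, *Lamp1* was the highest at 130.4 and 154.0 FPKM, before *Laptm4a* (43.3 and 57.6) and *Lamp2* (10.9 and 18.2), and 10 of the 13 were higher in replicate 2, as were 42.5% of all genes tested. The proton pump genes had medians of 19.2 and 21.5 FPKM, led by *Atp6v1e1* (69.1 and 61.2), *Atp6ap1* (49.7 and 64.8) and *Atp6v0b* (55.7 and 33.3). Of the genes of the MiT/TFE factors, *Mitf* had 2.3 and 3.1 FPKM, *Tfeb* 2.8 and 0.5, *Tfec* was near 0 and *Tfe3* was listed at 0. Each of these values is far below the FPKM of *Ctsd*, *Ctsb*, *Ctsz* and *Ctsl*.

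**Figure D5:**
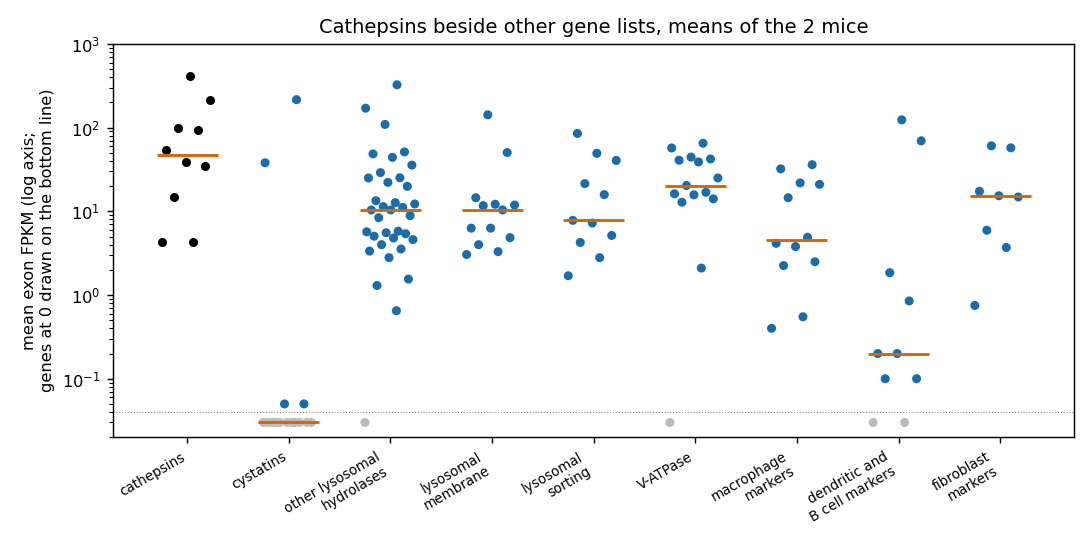
Mean exon FPKM over the 2 mice on a log axis for the genes of 9 lists, each point a gene and each line the median of the list, with genes listed at 0 drawn on the bottom line. The cathepsins reach from 4.25 to 408.8 FPKM, and most other lysosomal genes lie between *Ctsk* and *Ctsb*.

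Cathepsins are also made in quantity by macrophages and other cells of the gland, and the markers of these cells were present. Of 12 macrophage markers, 10 had a mean of at least 1 and none was at 0, with a summed FPKM of 169.8 in replicate 1 and 118.7 in replicate 2, and 8 of the 10 were higher in replicate 1, as were 55.4% of all genes tested. The 3 highest were *Lyz2* at 35.5 and 36.7 FPKM, *C1qa* at 44.8 and 19.6 and *Cd14* at 26.5 and 17.2. *Ctss*, at 39.0 and 31.0 FPKM, was near these but far above the median of the 12 markers, which was 5.25 and 3.8 FPKM. Of the dendritic and B cell markers 3 of 10 had a mean of at least 1 (sum 226.6 and 167.0), led by *Cd74* (154.4 and 93.4), *H2-Aa* (68.6 and 70.6) and *Itgax*, and *H2-Ab1* and *H2-Eb1* were listed at 0. *Ctsk*, a collagenase, was higher in replicate 2, but on few reads, and its counting interval (-0.03 to 1.20) included 0. The 8 fibroblast markers summed to 180.9 and 171.1 FPKM. Of these, *Dcn* was higher in replicate 2 (42.9 and 78.4), and *Col3a1* (71.2 and 43.6) and *Col1a1* (23.5 and 11.2) were higher in replicate 1. Neutrophil markers were near 0, with sums of 1.6 and 3.4 FPKM (*S100a8*, *S100a9* and *Csf3r* were the highest) and *Elane*, *Mpo* and *Ly6g* at 0, and so were T and NK cell markers (2.2 and 5.6, led by *Gzma*, *Nkg7* and *Gzmb*), the cells in whose granules *Ctsc* acts. Endothelial markers (led by *Cdh5*, *Pecam1* and *Kdr*) summed to 51.9 and 46.0, adipocyte markers (*Adipoq*, *Cidec*, *Plin1*) to 132.4 and 155.5 and myoepithelial markers (*Myh11*, *Oxtr*, *Krt14*) to 113.5 and 72.6 FPKM, with *Acta2* listed at 0. The part of these cells in the levels of the cathepsins was not tested.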

How the data were processed

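Total RNA of L10 mammary glands of 2 wt/Wap-Tbrg4 mice was sequenced from TruSeq Stranded Total RNA libraries on an Illumina HiSeq system. The authors mapped the reads to mm10 with STAR, counted them with HTSeq on collapsed exons of UCSC known genes and on the introns between them, and deposited FPKM values made with DESeq2, to 1 decimal. Versions and the total used for scaling are not given in the sources used here. Fold changes from a scaling of this kind are relative to the factor of each library. The estimated scale differed more between the mice than the exonic reads did, and the part of a few very high genes in it was not tested.

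The members and all gene lists were chosen with earlier results of these data known. The 35 genes without a usable symbol were left out. All 10 members are named, and of every other list the 3 genes with the highest mean and any gene that a result turns on. RefSeq on GRCm38.p6 (mm10) gave positions, lengths, GC content and promoter windows, and matched 20137 genes. Log2 ratios used a pseudocount of 1 for exons and 0.1 for introns over genes with a mean of at least 1 and 0.5. The GC curve was a lowess over 30% of the genes. After the data were seen, the read scale of each library was found as the number of reads between 2000000 and 25000000 at which FPKM below 1.5 of genes under 900 bp best gave whole reads: 92.1% of 241 values in replicate 1 and 81.7% of 175 in replicate 2 matched within the rounding of 0.1 FPKM, compared with 70.3% and 35.9% that rounding alone would match at these scales. The introns gave 10000000 and 5100000. Exact binomial (Clopper-Pearson) intervals were computed from the resulting reads. Member transcripts were aligned to the genome with minimap2 2.31. No place other than the gene itself had an identity of at least 95% over at least 50% of the transcript. Scale and GC steps were tested on simulated data. Versions were Python 3.11.15, statsmodels 0.14.6, scipy 1.17.1, matplotlib 3.10.9, pandas 2.3.3 and numpy 2.4.6. With 1 group no test was made. Alternatives changed the pseudocount, the filter, the scaling, the GC correction and the replicate.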

Additional observations from a re-analysis of the deposited data

How the results depend on the processing

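Of 48 alternatives to the log2 ratio of a member between the mice, 9 moved it by 0.1 or more. This count says little about stability, because a change of filter cannot alter the ratio of a gene. Centring on the median of all genes (-0.08) also shifts every ratio by less than 0.1. The moves came from the GC correction, for all members but *Ctsb* and *Ctsk*, and from the pseudocount of 0.1 for *Ctsf*. The mean summed exon FPKM of the members was 965. It was 5608 after each mouse was rescaled to 1000000 without the 10 genes highest in mean exon FPKM. The intron sum was 9.0, and was 7.91 after rescaling to 1000000 and 52.4 when the 10 highest genes were also left out. Such factors follow from the construction and act on all genes of a mouse alike. With a pseudocount of 0.1, 1 member (*Ctsf*) passed 2-fold between the mice, as did 11.1% of all genes. In the order of levels, 2 members changed place within replicate 1 and 4 within replicate 2. Leaving out either mouse gave exon sums of 865.9 to 1063.8 and intron sums of 8.6 to 9.4. With 2 mice this always stays within 1 SD of the mean and says nothing about stability. The GC correction turned the sign of *Ctsa* alone (from -0.32 to 0.04) and left 186 of 9725 genes past 2-fold, compared with 581 of 9845 without it. No paired analysis was possible because the design has a single group and no test. Levels under about 0.2 FPKM, including the introns of *Ctss*, are limited by rounding, and *Ctsf* and *Ctsk* by their few reads.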

Other observations

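Among the lysosomal genes, *Atp6v0c*, a membrane subunit of the proton pump, had 3.9 FPKM in replicate 1 and 0.3 in replicate 2. *Ids*, which degrades glycosaminoglycans, differed the other way, at 7.5 and 17.9 FPKM. *Lipa*, *Atp6ap2*, *Tfe3* and *Acta2* were listed at 0 in exons and introns of both mice, although these genes are widely used, so a listed 0 need not mean that the gene is silent.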
